A study of Mus musculus with 13 samples.

Results

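Hypertrophic chondrocytes are the last stage of cartilage cells in a growth plate, and Col10a1, Mmp13 and Mef2c are genes of that stage. Sox9 peaks were taken where the peak centre lay in a fixed mm9 window around each gene, at chromosome 10, 34040000 to 34190000 for Col10a1, chromosome 9, 7190000 to 7360000 for Mmp13, and chromosome 13, 83560000 to 83890000 for Mef2c. The rule drew on position alone, though the windows were chosen with earlier results of these data known. The rule found 6 of the 27656 peaks of rib chondrocytes and 6 of the 17440 peaks of nasal septum chondrocytes. A peak is a stretch of genome where DNA recovered with a Sox9 antibody was enriched, as the authors called it.

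Both cell preparations came from untreated wild-type mice of the ICR strain, were released by enzyme digestion and went into chromatin immunoprecipitation and sequencing with the same Sox9 antibody. Rib cells were taken at postnatal day 1 and nasal septum cells at embryonic day 17.5, so tissue and stage differ together. There was 1 Sox9 library per tissue, among 13 libraries in the series, and the sources used here do not give the number of animals. The whole rib list is divided by the authors into Class I, with 6794 peaks, and Class II, with 20862. The lists hold positions and no height, score or read depth, so the strength of a peak is unknown, no test across replicates was possible, and the intervals below cover counting error alone. They hold no expression values either, so whether the cells included hypertrophic ones was not checked.

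Chondrocytes of the growth plate first divide, then enlarge, and the enlarged cells change their matrix before bone replaces it. Sox9 is an HMG-box transcription factor that cartilage cells need to form and to make collagen II matrix, and its level falls as cells become hypertrophic. Sox9 has been described both as holding back this switch and as taking part in its early steps. Col10a1 encodes the chain of collagen X, a short network collagen laid down by hypertrophic cells and used as their marker. Mmp13 encodes collagenase 3, which cleaves collagen II and clears the cartilage matrix ahead of bone. Mef2c encodes a MADS-box transcription factor that drives hypertrophy and acts on Col10a1.

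The promoters of the 3 genes are shown as the sequences in which motifs were searched. They are the 250 bases before the annotated start, from RefSeq on GRCm38.p6, a later build than mm9. The peaks below were not placed against them, as no mm9 genome or annotation was used here. Capitals mark matches on either strand to the SOX core motif ACAAAG or ACAATG, the AP-1 motif TGANTCA or the RUNX motif TGTGGT. The RefSeq table holds 1 start for Col10a1, 1 for Mmp13 and 3 for Mef2c, of which the third was chosen for printing because it alone has a match. The windows are chr10:34389731-34389980, chr9:7272264-7272513 and chr13:83573357-83573606, all on the plus strand.
Col10a1: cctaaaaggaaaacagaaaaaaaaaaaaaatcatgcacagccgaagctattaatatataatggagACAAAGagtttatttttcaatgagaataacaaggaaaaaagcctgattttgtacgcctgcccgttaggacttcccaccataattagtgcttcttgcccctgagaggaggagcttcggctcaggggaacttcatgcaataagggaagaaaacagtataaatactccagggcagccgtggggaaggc
Mmp13: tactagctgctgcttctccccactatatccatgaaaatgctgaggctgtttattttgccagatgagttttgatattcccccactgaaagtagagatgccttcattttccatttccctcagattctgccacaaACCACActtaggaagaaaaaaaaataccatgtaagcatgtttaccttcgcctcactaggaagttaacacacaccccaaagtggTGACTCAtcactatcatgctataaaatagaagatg
Mef2c: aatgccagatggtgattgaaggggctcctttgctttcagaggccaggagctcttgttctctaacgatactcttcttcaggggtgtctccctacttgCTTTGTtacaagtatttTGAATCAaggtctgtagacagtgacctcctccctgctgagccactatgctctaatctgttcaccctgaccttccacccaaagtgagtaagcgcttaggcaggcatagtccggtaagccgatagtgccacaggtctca

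The Col10a1 promoter held ACAAAG from base -185 to base -180 before the start, and no AP-1 or RUNX match. The Mmp13 promoter held the AP-1 match TGACTCA from -35 to -29 and the RUNX match ACCACA, read on the other strand, from -118 to -113, and no SOX match. The third Mef2c start had a SOX match, CTTTGT on the other strand, from -154 to -149, and TGAATCA from -137 to -131. No match to the MEF2 motif stood in any of the 5 promoter windows. Over all 32851 promoter windows of the table, 25.2% held a SOX match, 6.75% an AP-1 match, 14.0% a RUNX match and 2.92% a MEF2 match. A SOX match in 2 of 5 windows is thus a description of these letters and carries no statement about binding. Among 20 further genes of the hypertrophic programme, 17 had a promoter window in the table, and 5 of these, Alpl, Foxa2, Ibsp, Pth1r and Spp1, held a SOX match in at least 1 window. Counted by window, this was 7 of 26, or 26.9%, near the share of all promoters.

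All 6 rib peaks at the 3 loci belonged to Class II, as do 75.4% of all rib peaks. The Class I count was 0 of 6. That allows a share of up to 50% by the rule of 3 counts, or 45.9% by the exact 95% binomial interval. Both limits treat peaks as independent, which the 4 rib peaks of the Col10a1 window are not. Class I makes up 24.6% of the whole rib list. Windows with so few peaks often held no Class I peak. Of the 818 autosomal windows of 150 kb with 4 rib peaks, as many as at Col10a1, 46.9% held no Class I peak. Of windows with 1 rib peak, 74.8% of 2220 as wide as that of Mmp13 and 77.4% of 911 as wide as that of Mef2c held none. The sources used here do not say how the authors drew the classes.

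**Figure D1:**
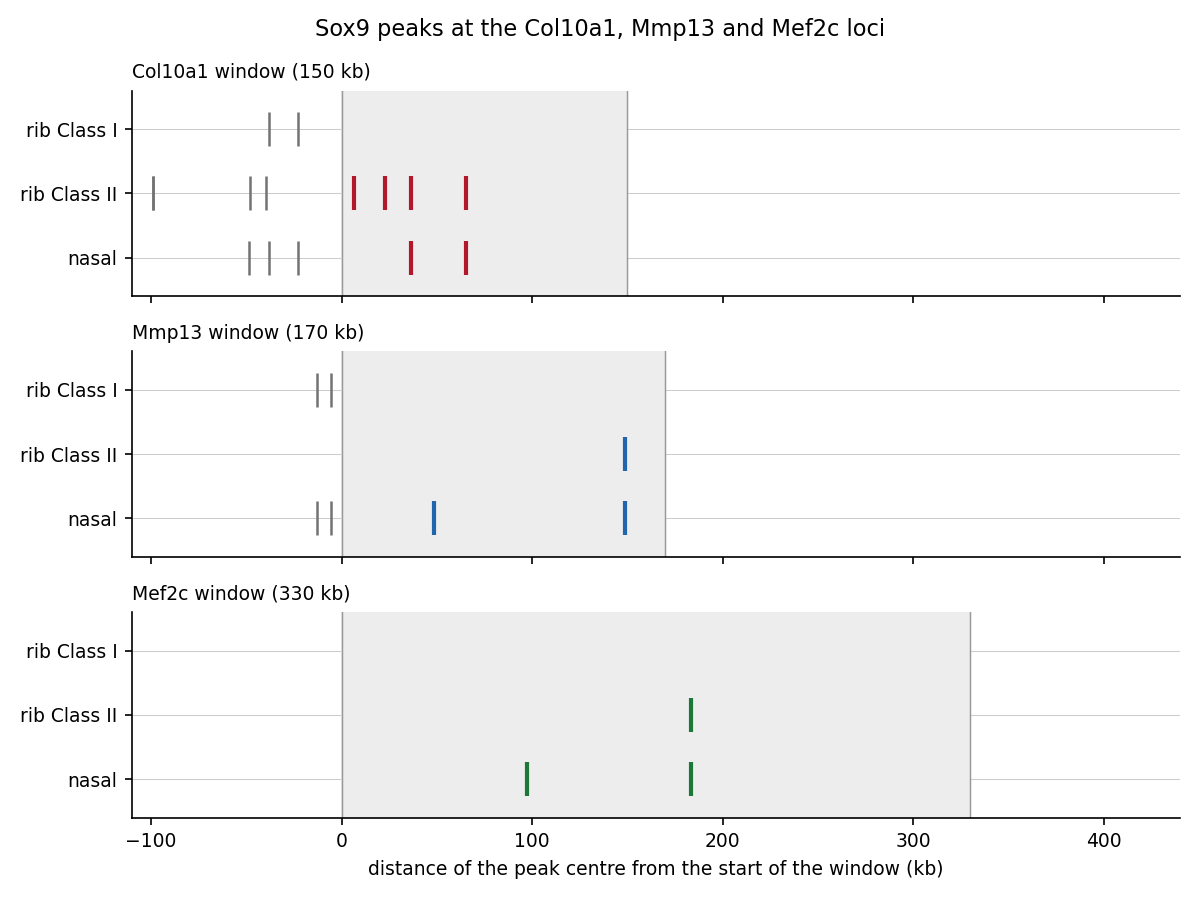
Positions of Sox9 peaks at the 3 loci, as the distance in kb of each peak centre from the start of the window (grey area). Coloured ticks are the 6 rib and 6 nasal peaks in the windows and grey ticks the peaks up to 100 kb outside. No coloured tick stands in the Class I rows, and all 8 grey rib peaks lie before a window.

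Col10a1 had the most rib peaks of the 3 loci, spread over the first part of its window. The rib peaks lay at chromosome 10, 34046544 to 34046723 (180 bp), 34062791 to 34063092 (302 bp), 34076451 to 34076592 (142 bp) and 34105284 to 34105451 (168 bp). The nasal peaks lay at 34076406 to 34076614 (209 bp) and 34105191 to 34105380 (190 bp), on the last 2 of the rib peaks. Gaps between the rib peaks were 16.1, 13.4 and 28.7 kb, of the order of the median gap of 23.1 kb between neighbouring rib peaks on the autosomes. The last 84.6 kb of the window held no peak of either tissue. In the RefSeq gene table Col10a1 lies within the span of another gene, Nt5dc1, between Tspyl4 and Frk, so a peak in this window cannot be assigned to Col10a1 by position alone.

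Mmp13 had 1 rib peak, at chromosome 9, 7338680 to 7338875 (196 bp), near the end of its window. A nasal peak at 7338592 to 7338991 (400 bp) covered it whole. A second nasal peak stood at 7238653 to 7238903 (251 bp), 99.7 kb before the other, without a rib peak. The nearest rib peak to it was 54.12 kb away, outside the window. In the gene table the neighbours of Mmp13 are Dcun1d5 on the lower side and Mmp12, the macrophage elastase, followed by Mmp1b and Mmp3, on the upper side. Which of these genes the peak at the window's end lies nearest to was not analysed here.

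Mef2c had 1 rib peak as well, at chromosome 13, 83743284 to 83743461 (178 bp). A nasal peak at 83743290 to 83743478 (189 bp) shared 172 bp with it. The second nasal peak, at 83657136 to 83657509 (374 bp), had no rib peak within 85.77 kb. In the gene table the nearest protein-coding genes to Mef2c are Cetn3 and Tmem161b.

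Per length, and for the windows as drawn, only the Col10a1 window was denser in rib peaks than the autosomes as a whole. Rib peaks numbered 26.7 per Mb at Col10a1, 5.88 at Mmp13 and 3.03 at Mef2c, against 11.4 on the autosomes. With windows 25 kb wider on each side, the rib counts were 5, 3 and 1. Densities were not recomputed for those windows, so the ranking may depend on where the edges fall. Nasal peaks numbered 13.3, 11.8 and 6.06 per Mb, against 7.21. Autosomal windows as wide as that of Col10a1 held at least its 4 rib peaks in 17.4% of 15961 cases and at least its 2 nasal peaks in 25%. The corresponding shares for Mmp13 were 54.4% of 14082 windows for 1 rib peak and 28% for 2 nasal peaks, and those for Mef2c were 67% of 7246 windows and 43.3%. By this background none of the 3 loci stood at the extreme of the genome. For scale, the fullest 100 kb bin of the rib list, on chromosome 15, held 37 rib and 16 nasal peaks, and its rib peaks included 10 of Class I. From general knowledge of mm9 that bin holds Col2a1, the collagen II gene of non-hypertrophic cartilage, and this placement was not checked against an annotation.

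**Figure D2:**
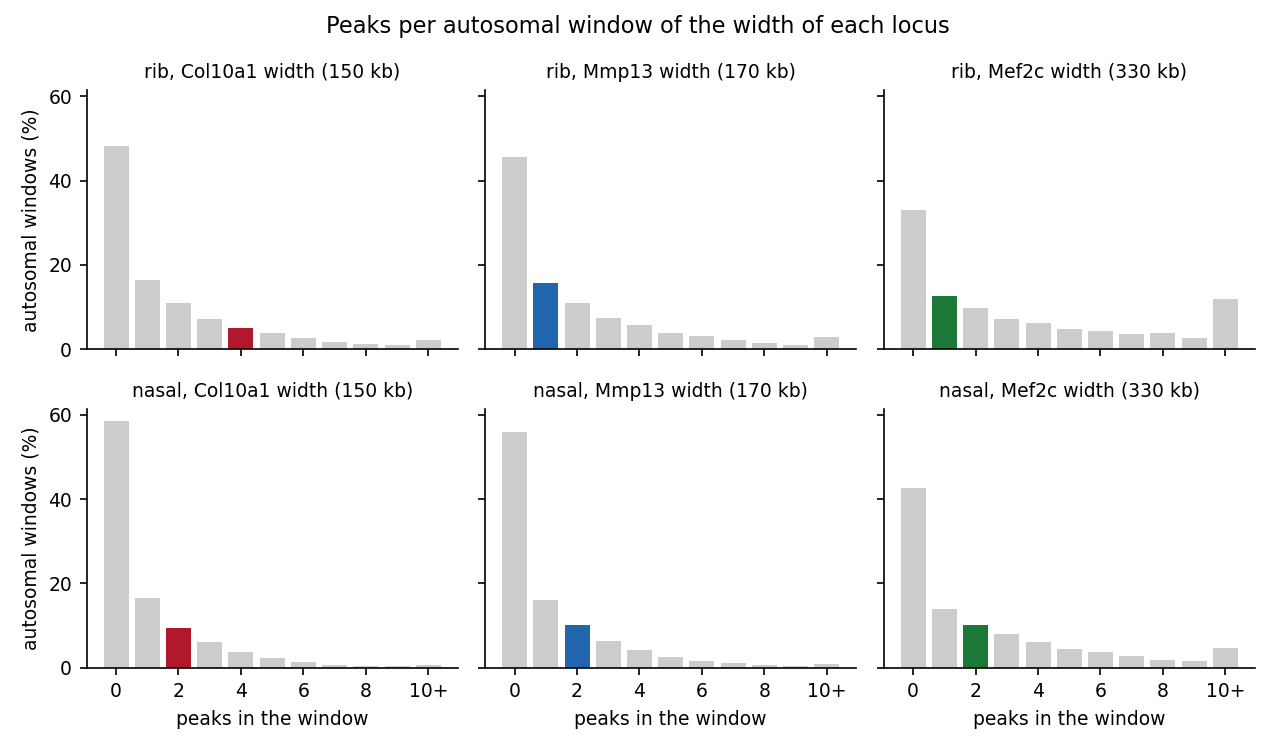
Share of autosomal windows (percent) by the number of peaks they hold, for windows as wide as each locus, with rib peaks above and nasal peaks below. The coloured bar is the count at the locus itself, 4, 1 and 1 rib peaks and 2 nasal peaks each, and the last bar gathers windows with 10 or more.

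Nasal peaks overlapped 4 of the 6 rib peaks by at least 1 bp, or 66.7% (95% exact binomial interval 22.3% to 95.7%). The share was 42.8% over the whole rib list and 34.4% over Class II, and both lie within that interval. Here too the interval takes peaks of the same window as independent, which they are not. In the other direction, rib peaks overlapped 4 of the 6 nasal peaks, beside 68.2% of the whole nasal list. Each locus thus had at least 1 site called in both tissues, Col10a1 had 2 rib peaks without a nasal peak, and Mmp13 and Mef2c each had 1 nasal peak without a rib peak.

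The shared sites were closely aligned at 3 of the 4 pairs. The 142 bp of the earlier-listed shared Col10a1 rib peak lay wholly inside its nasal partner, with centres 11.5 bp apart. At Mmp13 all 196 bp of the rib peak were shared, 49% of the wider nasal peak, with centres 14.0 bp apart, and at Mef2c 96.6% of the rib peak was shared, with centres 11.5 bp apart. The last Col10a1 rib peak shared 97 bp, or 57.7% of its width, and the centres lay 82.0 bp apart. Over all 7240 Class II pairs the median distance between centres was 32.5 bp and the median shared part of the rib peak 80.7%.

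The rib peaks without a nasal partner were the later ones in the rib list. What the order of the authors' list stands for is unknown, and the overlap with nasal peaks falls along it. The shared peaks stood at places 1049 and 13978 of 27656 at Col10a1, 2345 at Mmp13 and 1584 at Mef2c. The rib-only Col10a1 peaks stood at places 16609 and 18886. So each locus had 1 peak in the first 10% of the list, and all 3 of these were shared, where 81.1% of the 2545 Class II peaks of that bin were. The last Col10a1 peak fell in bin 6 of 10, where nasal peaks overlapped 21.0% of Class II peaks, and the rib-only peaks in bin 7, where the share was 18.6%. The early peaks were thus shared where most of their bin was, and the rib-only peaks were unshared where most of theirs was.

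**Figure D3:**
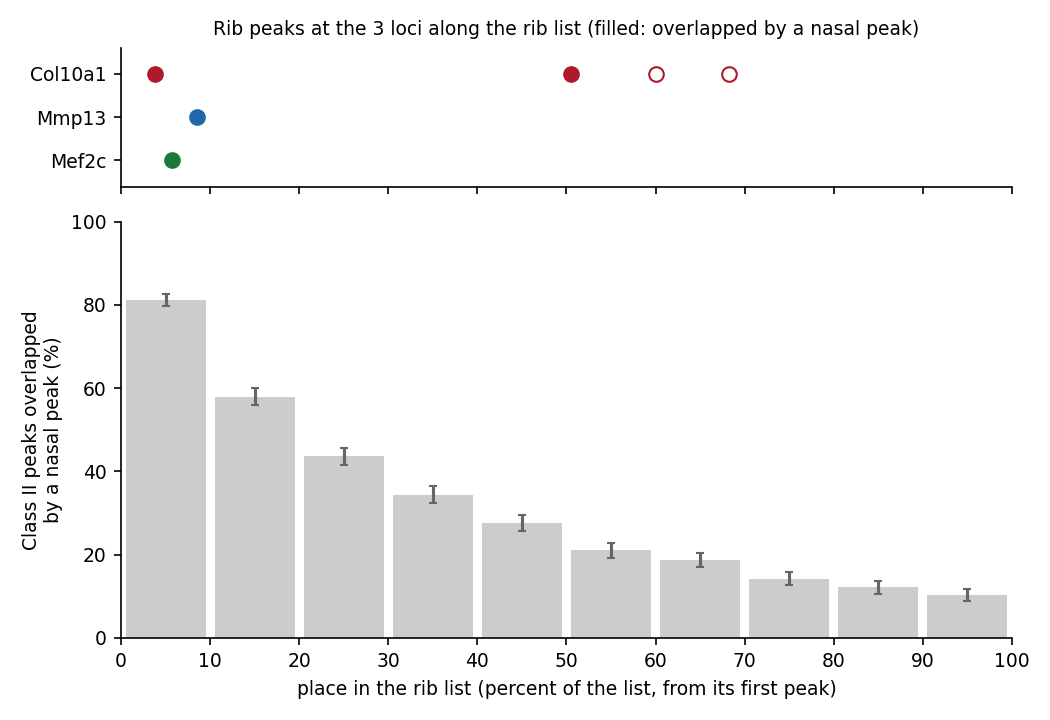
The upper panel marks each of the 6 rib peaks by its place in the rib list (percent of the list), filled where a nasal peak overlaps it. The lower bars give the share of Class II peaks overlapped by a nasal peak in each of 10 bins of the list, with 95% exact binomial intervals, from 81.1% in the first bin to 10.2% in the last.

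The early rib peaks of Mmp13 and Mef2c had partners farther down the nasal list than most Class II pairs in the first 10% of the rib list. The early Col10a1 peak did not. The Col10a1 pair stood at 3.79% of the rib list and at place 1303, or 7.47%, of the nasal list. The Mmp13 pair stood at 8.48% of the rib list and at place 8178, or 46.9%, of the nasal list. The Mef2c pair stood at 5.73% and at place 11494, or 65.9%. Over the 2088 Class II pairs in the first 10% of the rib list the median place of the nasal partner was 17.2%, with the middle 50% between 7.31% and 37.7%. Over all Class II pairs the median was 43.8%, near the place of the Mmp13 partner. Of the 2088 pairs, 19.1% had a later nasal partner than the Mmp13 pair, and 9.72% a later one than the Mef2c pair. The nasal place of partners was later farther along the rib list, with a median of 61.4% for Class II pairs in bin 6. The Mmp13 peak stood near the end of the first 10%, so its share sets it mainly against earlier-listed peaks. Pairs nearer to its own place in the list were not compared. The other Col10a1 pair stood at 50.5% and 49.1%. No test was made of these places, since each is a single peak from a single library.

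**Figure D4:**
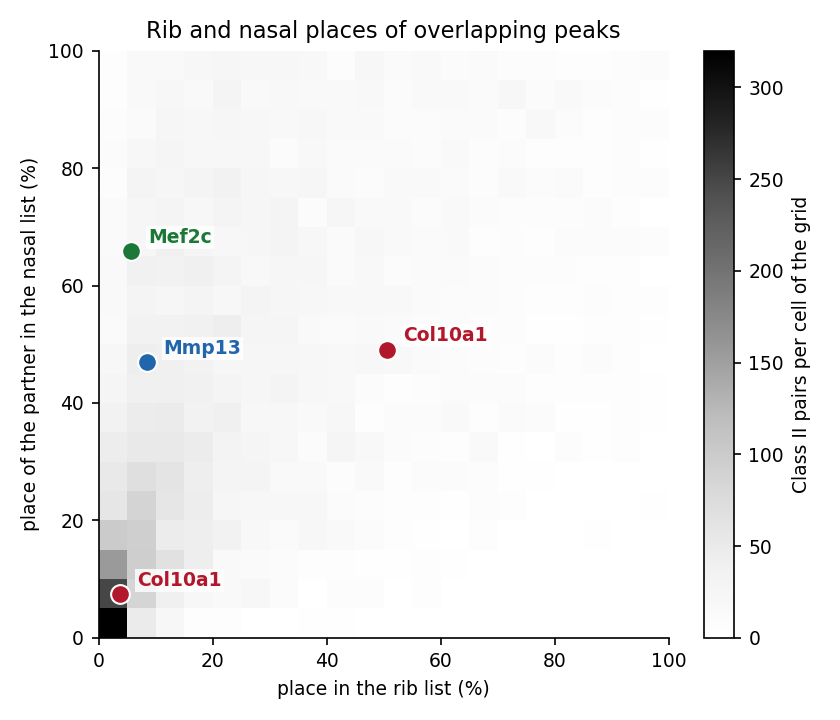
Place of the rib peak (percent of the rib list) against the place of its nasal partner (percent of the nasal list), for Class II pairs in grey, darker where a cell of the grid holds more pairs, and for the 4 pairs at the 3 loci as coloured points. The Mmp13 and Mef2c points lie at 46.9% and 65.9% of the nasal list, above the dark corner in which an early Col10a1 pair lies.

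The nasal peaks without a rib partner stood at place 7433, or 42.6% of the nasal list, at Mmp13, and at place 16183, or 92.8%, at Mef2c. Rib peaks overlapped 71.0% of nasal peaks in bin 5 of 10, where the Mmp13 peak lies, and 42.4% in bin 10, where the Mef2c peak lies. Both were wide, with 80.2% and 94.7% of nasal peaks narrower. The shared Mmp13 nasal peak, at 400 bp, was wider than 96.1% of the list. The median width was 230 bp over the 6 nasal peaks and 182 bp over the nasal list, and 179 bp over the 6 rib peaks and 180 bp over the rib list.

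None of the 12 peaks had another peak of its own list within 10 kb. Such a neighbour stood beside 52.9% of all rib peaks and 44.9% of all nasal peaks. A count of 0 of 6 allows a share of up to 45.9% by the exact 95% interval. That interval treats peaks as independent, which peaks of the same window are not. At Mmp13 and Mef2c the single rib peak lay more than 10 kb inside the window, so the count of 1 already fixed this result. Windows with as few peaks were not used as a background here. The nearest rib neighbour lay between 13.36 and 28.69 kb away for the Col10a1 peaks and 154.15 kb away for the Mmp13 peak. For the Mef2c peak it lay 711.12 kb away. Only 84 of the 27364 autosomal rib peaks, or 0.307%, were farther from their nearest neighbour than the Mef2c peak, and 3.40% were farther than the Mmp13 peak. Among the 2532 autosomal Class II peaks in the first 10% of the rib list, these counts were 3 for Mef2c and 40 for Mmp13. The Mef2c site was thus an early-listed, shared and solitary peak. In the nasal list its neighbour was the nasal-only peak of the same window, 85.78 kb away, and 12.4% of autosomal nasal peaks were farther from theirs.

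The windows of Col10a1 and Mef2c bordered on long stretches without Sox9 peaks. After the last Col10a1 peak no rib peak followed for 2588.6 kb, and no nasal peak for 2588.7 kb. The rib gap was longer than 99.7% of the 27345 gaps between neighbouring rib peaks on the autosomes. That share counts each gap once whatever its length, and a fixed window is more likely to border on a long gap. Of autosomal windows as wide as that of Col10a1, 48.1% held no rib peak. At Mef2c the rib list was empty for 711.1 kb before the peak and for 2026.0 kb after it. The nasal list was empty for 624.9 kb before its first Mef2c peak and for 618.4 kb after its last. After the Mmp13 peak the rib gap was 424.7 kb. Whether gaps in the assembly or sequence that reads cannot be mapped to lie in these stretches was not tested.

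Class I peaks appeared just outside 2 of the windows. Up to 100 kb outside lay 8 rib peaks, 6 at Col10a1 and 2 at Mmp13, all on the lower side, and none at Mef2c. At Mmp13 both were Class I, at chromosome 9, 7176981 to 7177169 and 7184246 to 7184527, the latter 5.6 kb from the window's edge, and both were overlapped by nasal peaks. At Col10a1 the Class I peaks lay at chromosome 10, 34001811 to 34002028 and 34017148 to 34017343, 38.1 and 22.8 kb from the edge, again both with a nasal peak. Nasal peaks overlap 68.8% of all Class I peaks, and 4 of 4 peaks are too few to differ from that share. The other 4 Col10a1 flanking peaks were Class II, and a nasal peak overlapped 1 of them. At Mef2c the nearest Class I peak lay 1637.4 kb before the window. The absence of Class I peaks is thus a statement about these windows as drawn, and which genes the flanking peaks lie at was not analysed here.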

How the data were processed

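Sox9 ChIP-seq peak lists were analysed for 1 rib and 1 nasal library. The other 11 libraries, inputs and IgG among them, were not analysed here. Each immunoprecipitation used 9 μg of antibody on 20000000 formaldehyde-fixed cells, per the labels' protocols. The authors deposited 4 lists with chromosome, start and end, on mm9 per the submitters' processing notes. The sources used here name no aligner, peak caller, control or class definition. Peak height and depth are unknown, so precision is limited to counting error.

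The 3 windows, the named genes (every peak in the windows) and the gene lists were chosen with earlier results of these data known. Starts were raised by 1, so positions are 1-based. A peak was a member where its centre lay in a window. Overlap meant at least 1 shared bp. Shares have 95% Clopper-Pearson (exact) intervals. Background windows tiled the autosomes at each locus's width, between the first and last peak of each chromosome. Motifs were searched in RefSeq promoters of GRCm38.p6, and no position was converted between builds. Alternatives covered window edges, overlap, distance and list length.

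The overlap routine was tested on simulated lists, where it found 800 of 800 planted overlaps and 0 false ones, and on the deposited lists, where 0 of 27656 calls differed from bedtools 2.31.1. Tables were made with pandas 2.3.3 and numpy 2.4.6 in Python 3.11.15, intervals with scipy 1.17.1 and plots with matplotlib 3.10.9.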

Additional observations from a re-analysis of the deposited data

How the results depend on the processing

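Of 67 recomputed values, 44 were classed as the same as the reported ones and 23 as moved. The first class was broad. It held a rib overlap share that went from 66.7% to 50% and a Col10a1 nasal count that went from 2 to 3. Counting any base in the window changed none. With windows 25 kb wider on each side, Mmp13 had 3 rib and 4 nasal peaks, and Class I peaks at the 3 loci numbered 3. With 100 kb, Col10a1 had 10 rib and 5 nasal peaks, Mmp13 had 3 and 4, and Class I peaks numbered 4. With windows 25 kb narrower, Col10a1 had 2 rib peaks and Mmp13 had 0 rib peaks and 1 nasal peak. In the first 50% of each list, Col10a1 had 1 rib peak and Mef2c 0 nasal peaks. Without the Col10a1 locus, 100% of the 2 remaining rib peaks were overlapped by nasal peaks. With overlap redefined as 50% or more of each peak, both shares were 50%, as the Mmp13 pair was lost, whose shared bases made up 49% of the nasal peak.

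Within 25 kb, 3 of 6 rib peaks had a neighbour of their list, and within 50 kb 4 of 6 rib and 2 of 6 nasal peaks had. Over the whole lists the rib share was 71.9% within 25 kb and 85.2% within 50 kb, and the nasal share within 50 kb was 78.3%. Among windows with at least 1 peak, the share with as many rib peaks was 33.6% for Col10a1, 100% for Mmp13 and 100% for Mef2c, where a count of 1 is the minimum, and that for nasal peaks was 60.1%, 63.6% and 75.6%. Leaving out each locus from the nasal share was added after seeing the data and gave 50% to 75%. No replicate could be left out, with 1 library per tissue, and with 6 peaks per tissue a share can be told from the background only if it differs widely.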
